A study of Mus musculus with 6 samples.

Results

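Mouse chromosome 13 was described from 3 DamID maps of contacts between chromatin and the nuclear lamina in fibroblasts cultured from mouse embryos (MEFs). It was selected on its share of sequence in lamina-associated domains (LADs), which differed most between maps, so the LAD values that set the LmnA RNAi map apart here are a description and carry no test. All bins of 100 kb with at least 50% of their length covered by fragments were taken, which gave 1163 of the 25588 such bins of the genome. The deposited lists placed 96 of 1768 LADs on this chromosome in LmnA RNAi cells, 97 of 1807 in LmnC RNAi cells and 98 of 1764 in LmnB1 RNAi cells. Coordinates are in the mm9 build. At the cover minimum, 5 partly covered bins with 8.69% to 48.7% cover were left out, and the least covered bin kept had 63.4%.

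The cells were of the C57BL/6 strain and carried a wild type genotype in every map. The LmnA RNAi map came from cells given a lentiviral shRNA against LmnA, the LmnC RNAi map from cells given one against LmnC, and the LmnB1 RNAi map from cells whose labels name LmnB1 as the RNAi target. The labels' protocols give selection with puromycin at 2 ug/mL and then a lentivirus for Dam alone or a Dam fusion. By the sample titles this fusion was Dam-LmnB1 in the LmnA and LmnC RNAi cells and Dam-LmnA in the LmnB1 RNAi cells. The protocols name Dam-LmnB1 only. Each map rests on 1 fusion library and 1 Dam-only library with no replicates, so no p-value is given and every difference is between these maps. A map without shRNA was not analysed here, and neither RNA nor protein was measured, so lamin depletion and the fibroblast identity could not be checked here. In any difference from the LmnB1 RNAi map, RNAi target and fusion protein cannot be told apart.

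The lamina is a mesh of lamin filaments under the inner nuclear membrane. Alternative splicing of Lmna gives lamins A and C, and lamin B1 is encoded by Lmnb1 and stays anchored to the membrane through a lipid tail. LADs are long domains that touch this mesh, and in fibroblasts as in other cells they are known as gene-poor, little transcribed and late-replicating. In DamID, a bacterial adenine methyltransferase fused to a lamin marks GATC sites near the lamina, and Dam alone gives the background. Mouse chromosomes have their centromere at the start of the coordinates, so position along chromosome 13 is distance from the centromere. The chromosome carries the largest cluster of replication-dependent histone genes of the mouse and the prolactin family cluster, but genes were not placed here, since the gene table at hand is of another build.

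Chromosome 13 was covered by 289933 GATC fragments with a median length of 260.0 bp, which began at 3000227, ended at 120281880 and held 115.5 Mb. Each fragment has a log2 ratio, fusion library over Dam-only library, offset by a constant for each map, so a higher value means more fusion signal relative to Dam alone. This constant was -0.345 in LmnA RNAi cells, 0.215 in LmnC RNAi cells and -0.153 in LmnB1 RNAi cells. Exactly at it lay 29.3%, 28.2% and 29.3% of the fragments, maps in the same order. A log2 ratio of 0 is thus not the same point in each map. With reads from the fusion library and none from Dam alone were 16.7% of fragments in LmnA RNAi cells, 12.3% in LmnC RNAi cells and 13.7% in LmnB1 RNAi cells. With reads from Dam alone and none from the fusion were 7.92%, 12.4% and 10.4%, maps in the same order. These single-library fragments held 131656 fusion and 62186 Dam-only reads in LmnA RNAi cells, 80905 and 132503 in LmnC RNAi cells, and 88322 and 89212 in LmnB1 RNAi cells, with a median of 1 read in each map. The fusion library thus had more of these reads in LmnA RNAi cells and the Dam-only library more in LmnC RNAi cells, on chromosome 13 (2.12 and 0.611 fusion reads per Dam-only read) as on the other autosomes (2.04 and 0.678). The part of this imbalance in the differences below was not tested. Fragments exactly at the constant of their map stayed in all values given below without single-library fragments. Total reads per library are unknown. A 100 kb bin had an SD from fragment sampling of 0.30 in LmnA RNAi cells, 0.29 in LmnC RNAi cells and 0.28 in LmnB1 RNAi cells, estimated from odd-numbered against even-numbered fragments, and the LmnA minus LmnC RNAi difference of a bin had one of 0.39.

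LADs covered more of chromosome 13 in LmnA RNAi cells than in the other maps. They held 68.4% of its fragment length in LmnA RNAi cells, 54.4% in LmnC RNAi cells and 55.8% in LmnB1 RNAi cells. The other autosomes averaged 66.3% (SD 5.06), 57.5% (SD 4.19) and 58.3% (SD 4.57) over 18 chromosomes, which are not replicates. Chromosome 13 thus ranked seventh of 19 autosomes by its LAD share in LmnA RNAi cells, and near the bottom, at rank 16 and rank 15, in LmnC and LmnB1 RNAi cells. The LmnA minus LmnC RNAi difference was 14.1 percentage points, against 12.7 on chromosome 3, the next in order, and 3.15 on chromosome 7, the lowest. The LmnA minus LmnB1 RNAi difference was 12.6 points, against 11.2 on chromosome 12 as the next. The LmnC minus LmnB1 RNAi difference was -1.45 points, beside a mean of -0.755 (SD 1.56) on the other autosomes, so the wide differences in LAD share are those that involve the LmnA RNAi map. Overlap of the lists gave the same order. The Jaccard index, which divides the length common to a pair of lists by the length of their union, was 0.746 for LmnA and LmnC RNAi and 0.752 for LmnA and LmnB1 RNAi, below the lowest values of the other autosomes (0.782 and 0.803, both on chromosome 10). For LmnC and LmnB1 RNAi it was 0.855, within the range of the others (0.835 to 0.894).

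**Figure D1:**
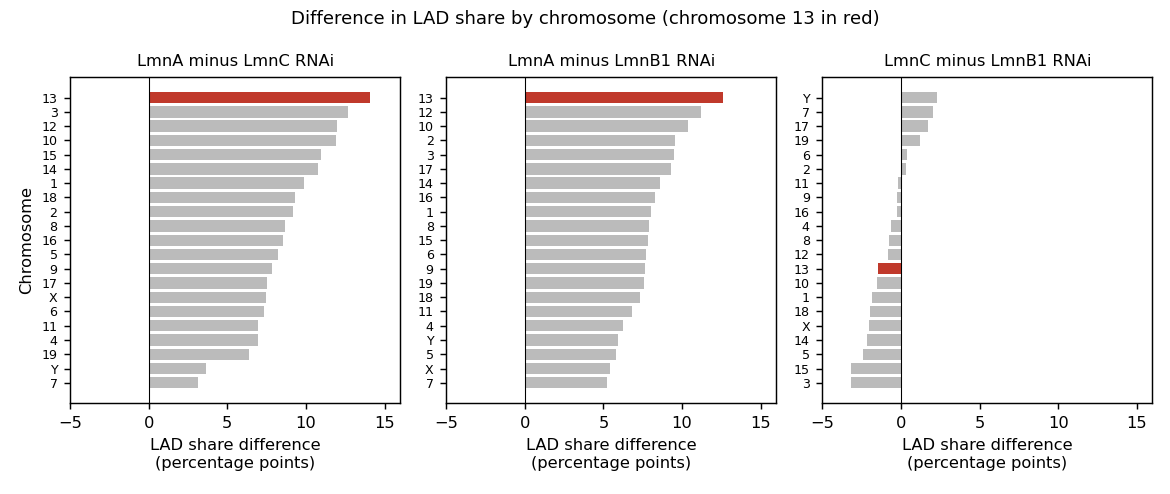
Horizontal bars give the difference in LAD share (percentage points of fragment length) for each chromosome and pair of maps, with chromosome 13 in red. Chromosome 13 is at the top for LmnA minus LmnC RNAi (14.1 points) and LmnA minus LmnB1 RNAi (12.6 points) and in the middle of the order for LmnC minus LmnB1 RNAi (-1.45 points).

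The LAD shares in LmnA and LmnC RNAi cells parted most between 30 and 40 Mb from the chromosome start and least between 80 and 90 Mb. The chromosome was divided into segments of 10 Mb. Between 30000001 and 40000000, LADs held 73.6% of fragment length in LmnA RNAi cells, 37.3% in LmnC RNAi cells and 42.5% in LmnB1 RNAi cells, an LmnA minus LmnC RNAi difference of 36.2 points. Between 90000001 and 100000000 the shares were 62.7%, 38.5% and 42.04%, a difference of 24.2 points. In both segments the LAD share in LmnB1 RNAi cells was nearer that in LmnC RNAi cells than that in LmnA RNAi cells. The neighbouring segment from 40000001 to 50000000, the poorest in LADs of those at full length in each map, had 45.4%, 22.4% and 21.9%.

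Farther along, in the segment from 80000001 to 90000000, 90.5% of fragment length was in LADs in LmnA RNAi cells, 90.4% in LmnC RNAi cells and 90.6% in LmnB1 RNAi cells, a difference of 0.03 points for LmnA minus LmnC RNAi. The segment before it, from 70000001 to 80000000, had 90.6%, 86.8% and 90.5%. This stretch of chromosome 13 was thus mostly in LADs whichever lamin was targeted. The short last piece from 120000001 to 120281880 went the other way, with 46.6% in LmnA RNAi cells, 68.8% in LmnC RNAi cells and 51.6% in LmnB1 RNAi cells, but it held only 0.28 Mb of fragments and 3 bins.

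Over the 12 segments with at least 50% cover, the LmnA minus LmnC RNAi difference had a median of 12.98 points and was above 10 points in 7 (58.3%). Over 234 segments of the other autosomes the median was 7.92 points, and 91 (38.9%) were above 10 points. The segment from 30 to 40 Mb, at 36.2 points, exceeded the highest of those 234 (32.8). Without the segments from 30 to 40 Mb and from 90 to 100 Mb, the chromosome's LmnA minus LmnC RNAi difference was 10.8 points and its LmnA minus LmnB1 RNAi difference 9.94 points. These segments were picked for their difference, so the drop is fixed by the choice. The 3 segments from 30 to 50 Mb and from 90 to 100 Mb held 45.4% of the sequence that the LmnA RNAi list held and the LmnC RNAi list lacked, with 25.2% of the fragment length. The 2 segments from 70 to 90 Mb held 4.92% of it, with 17.2% of the fragment length.

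**Figure D2:**
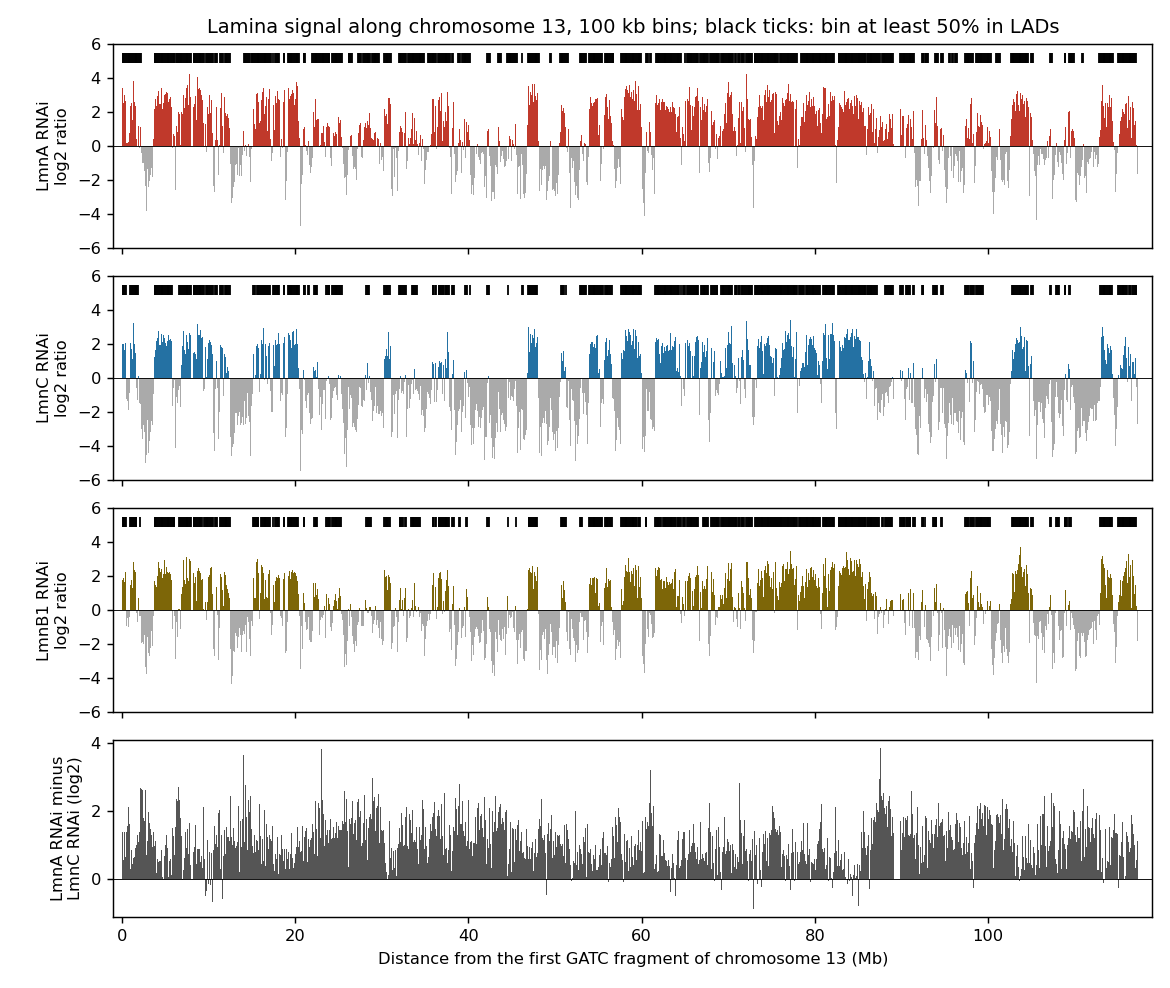
Bars give the mean log2 ratio in 100 kb bins in LmnA, LmnC and LmnB1 RNAi cells and, at the bottom, the LmnA minus LmnC RNAi difference, against distance from the first fragment in Mb, and black ticks mark bins with at least 50% of fragment length in LADs. The signal follows one course in the 3 maps, and ticks are denser in LmnA RNAi cells at about 27 to 47 Mb and past 87 Mb on this axis.

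Mean signal by segment followed the LAD shares but left no segment without an offset. From 30 to 40 Mb the mean log2 ratio was 0.39 ± 0.03 in LmnA RNAi cells, -0.99 ± 0.03 in LmnC RNAi cells and -0.20 ± 0.03 in LmnB1 RNAi cells (SE over fragments). From 90 to 100 Mb it was -0.02 ± 0.03, -1.56 ± 0.03 and -0.75 ± 0.03, an LmnA minus LmnC RNAi difference of 1.54, the widest of any segment. From 80 to 90 Mb, where LAD shares were alike, it was 2.03 ± 0.04, 1.36 ± 0.03 and 1.78 ± 0.03, a difference of 0.67. The deposited LmnA RNAi signal was thus above the LmnC RNAi signal in every segment, by 0.63 to 1.54. Part of this is an offset of the whole maps, whose median bins over the genome were 1.30 and 0.15. With those medians set to 0, 38% of bins from 30 to 40 Mb were higher by more than 0.5 in LmnA RNAi cells and 14% lower. From 80 to 90 Mb 10% were higher and 53% lower. Without single-library fragments the values from 30 to 40 Mb were -0.09, -0.60 and -0.32, and those from 80 to 90 Mb were 0.85, 0.60 and 0.68, so the sign in LmnA RNAi cells from 30 to 40 Mb turned.

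**Figure D3:**
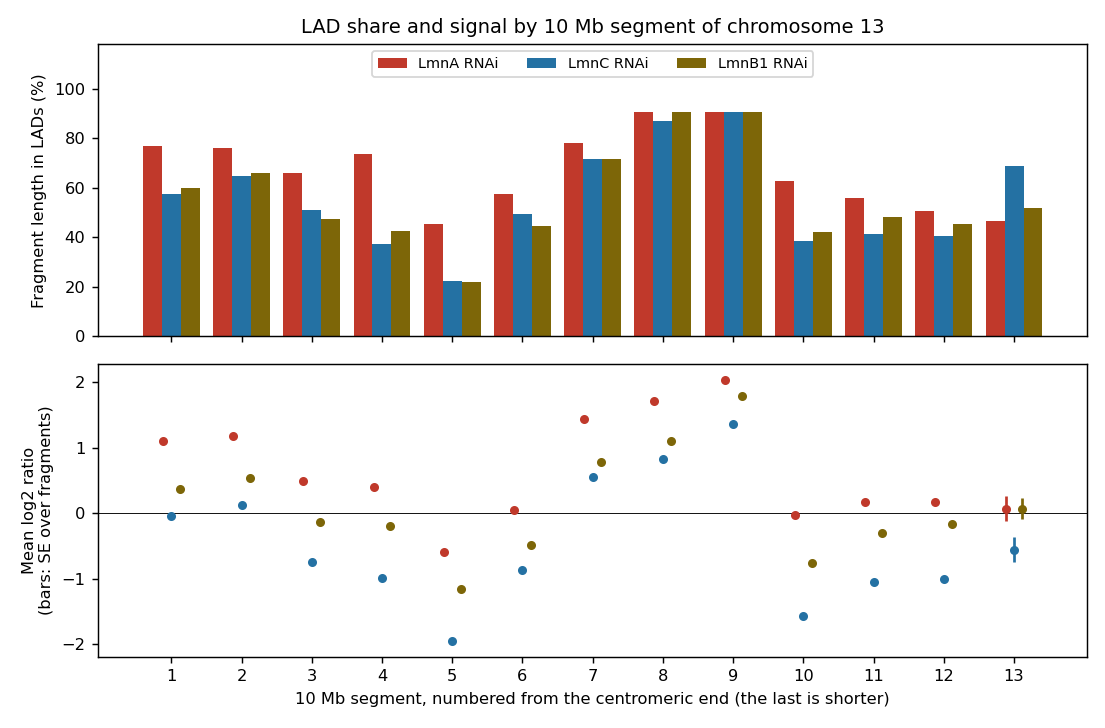
The upper panel gives the percentage of fragment length in LADs and the lower panel the mean log2 ratio (bars, SE over fragments) in consecutive 10 Mb segments of chromosome 13, with LmnA RNAi in red, LmnC RNAi in blue and LmnB1 RNAi in olive. Segment 4 has the widest gap in LAD share (73.6% in LmnA RNAi cells against 37.3% in LmnC RNAi cells), and in segment 9 the shares lie between 90.4% and 90.6%.

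The comparison of LmnA with LmnC RNAi was made with the same fusion, Dam-LmnB1. Stretches of 100 kb or more that only the LmnA RNAi list of this pair held numbered 53 on chromosome 13 and summed to 16.2 Mb, or 14.1 Mb per 100 Mb of fragments. The other autosomes had 707 such stretches, or 8.63 Mb per 100 Mb. The median length was 239.5 kb on chromosome 13 and 198 kb elsewhere. Of the 53, 23 were whole LADs (8.64 Mb), 23 lay at LAD edges (5.73 Mb) and 7 bridged LmnC RNAi LADs (1.87 Mb). Whole LADs thus made up the larger part by length here, where on the other autosomes edges (82.7 Mb) and whole LADs (78.6 Mb) were near equal. The 10 longest stretches held 41.6% of the summed length. At least 50% of the length lay in LADs in LmnB1 RNAi cells in 10 of the 53, and in 210 of 707 elsewhere.

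The longest stretch lay between LADs of the LmnC RNAi map, from 25635212 to 26530219 (895 kb). Its mean log2 ratio was 0.41 ± 0.10 in LmnA RNAi cells, -1.56 ± 0.11 in LmnC RNAi cells and -0.58 ± 0.10 in LmnB1 RNAi cells (SE over 2046 fragments). Without single-library fragments, the ratios were -0.03 in LmnA RNAi cells and -0.79 in LmnC RNAi cells. The next, a whole LAD from 102539376 to 103427611 (888 kb), had 0.37 ± 0.11 in LmnA RNAi cells, -1.55 ± 0.12 in LmnC RNAi cells and -0.06 ± 0.09 in LmnB1 RNAi cells. After LmnB1 RNAi 89.6% of it was in LADs, so it was missing from the LmnC RNAi list alone. A whole LAD from 16952137 to 17776860 (825 kb) had 0.15 ± 0.12, -1.98 ± 0.11 and -1.06 ± 0.11 in the order LmnA, LmnC and LmnB1 RNAi, and was in LADs in LmnA RNAi cells alone.

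**Figure D4:**
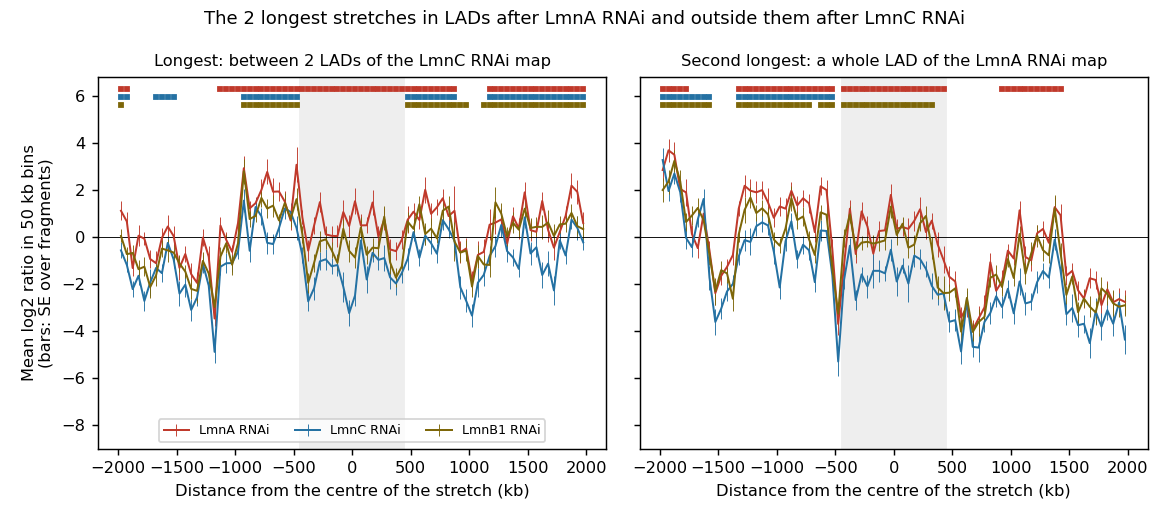
Lines give the mean log2 ratio in 50 kb bins (bars, SE over fragments) up to 2 Mb either side of the centre of the longest stretch (left, 895 kb) and the next longest (right, 888 kb), which are shaded, and squares at the top mark bins in LADs of the LmnA (red), LmnC (blue) and LmnB1 RNAi map (olive). In the shaded stretches the LmnA RNAi line lies above the LmnC RNAi line, with means of 0.41 against -1.56 on the left and 0.37 against -1.55 on the right.

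The other 7 of the 10 longest were 1 edge and 6 whole LADs. The edge, from 37077340 to 37859024 (782 kb), had 0.10 ± 0.10 in LmnA RNAi cells, -1.35 ± 0.10 in LmnC RNAi cells and -0.54 ± 0.10 in LmnB1 RNAi cells, where 38.1% of it was in LADs. A whole LAD from 31914386 to 32673430 (759 kb), in the segment where LAD shares parted most, had 0.38 ± 0.10, -1.92 ± 0.11 and -0.79 ± 0.10 in that order. Without single-library fragments these were -0.11, -1.08 and -0.61.

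In the same order of maps, the whole LAD from 47679072 to 48318316 (639 kb) had 0.17 ± 0.12, -0.99 ± 0.12 and -0.46 ± 0.10. The one from 29077302 to 29641191 (564 kb) had 0.08 ± 0.11, -1.42 ± 0.12 and -0.50 ± 0.10. Signal in LmnA RNAi cells was within 2 SE of 0 in these domains, and it lay at 0.00 ± 0.12 against -1.97 ± 0.13 in LmnC RNAi cells from 103906447 to 104441584 (535 kb). The whole LADs from 112603397 to 113039104 (436 kb) and from 95656593 to 96085685 (429 kb) were higher, at 0.83 ± 0.14 and 0.41 ± 0.13 in LmnA RNAi cells, against -0.86 ± 0.16 and -0.89 ± 0.14 in LmnC RNAi cells. The LADs that separate the maps are thus domains of intermediate signal in LmnA RNAi cells, far below the 2.23 that sequence in LADs of every map averaged on this chromosome.

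Over the 53 stretches the median log2 ratio was 0.35 in LmnA RNAi cells, -1.45 in LmnC RNAi cells and -0.61 in LmnB1 RNAi cells. The LmnA RNAi value was the higher of the first pair in 53 of 53, in 50 once the median bin of the genome was set to 0 in each map, and in 53 without single-library fragments. Since the LAD lists of the same maps chose these stretches, the direction is built in and is no separate evidence.

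LADs of the LmnA RNAi map with no counterpart at all in LmnC RNAi cells numbered 23 of 96 (24.0%), against 271 of 1584 (17.1%) on the other autosomes. Of the 23, 16 had no counterpart in LmnB1 RNAi cells either, and the other 7 overlapped a LAD of that map. They measured 102 to 888 kb, and their median of 328 kb was above the 204 kb of such LADs elsewhere. At least 500 kb long were 6 of 23 (26.1%), against 32 of 271 (11.8%). By segment, 5 began between 40 and 50 Mb, 5 between 90 and 100 Mb and 3 between 30 and 40 Mb. None began before 10 Mb, between 70 and 90 Mb or past 120 Mb. LmnC RNAi LADs held 86.8% and 90.4% of the 2 segments from 70 to 90 Mb, which leaves little room there. The piece past 120 Mb held only 0.28 Mb of fragments. These counts were not set against the room in each segment. The lowest of the 23 LADs in signal, at -0.46 ± 0.17 in LmnA RNAi cells, lay from 99159914 to 99460805. The highest, at 1.82 ± 0.36, lay from 40831789 to 40934007. It was the shortest and had 0.09 ± 0.31 in LmnC RNAi cells and 0.58 ± 0.33 in LmnB1 RNAi cells.

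In the other direction less sequence was found, though more per 100 Mb than on the other autosomes. Stretches held by the LmnC RNAi list and not by the LmnA RNAi list numbered 8 (1.41 Mb), and 5 of them were whole LADs. They came to 1.22 Mb per 100 Mb of fragments, against 0.656 on the other autosomes. The longest was from 110837841 to 111163491 (326 kb), with -0.20 ± 0.17 in LmnA RNAi cells, -0.55 ± 0.16 in LmnC RNAi cells and 0.25 ± 0.15 in LmnB1 RNAi cells. The next, from 67678208 to 67911233 (233 kb), had 0.71 ± 0.21, -0.30 ± 0.19 and 0.52 ± 0.20, and the third, from 96572308 to 96774829 (203 kb), had 0.47 ± 0.17, -0.46 ± 0.18 and -0.04 ± 0.17. Each of these thus had lower deposited signal in the map that lists it. Next came the stretch from 24397893 to 24566550 (169 kb), with -0.09 ± 0.25 in LmnA RNAi cells and -0.71 ± 0.18 in LmnC RNAi cells. An edge from 101257994 to 101408803 (151 kb) had 0.14 ± 0.23 in LmnA RNAi cells and 0.69 ± 0.21 in LmnC RNAi cells. The LmnC RNAi value was the higher of the pair in 3 of 8 as deposited, in 8 of 8 after centring and in 1 of 8 without single-library fragments. After LmnB1 RNAi, 6 of the 8 lay in LADs over at least 50% of their length, as did 38 of 86 elsewhere.

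Where LADs of the maps met, those of the LmnA RNAi map tended to reach farther out. The 184 borders of LmnC RNAi LADs that had a counterpart were set against the nearest LmnA RNAi border of the same side. The LmnA RNAi border lay more than 10 kb outward in 97 (52.7%), more than 10 kb inward in 43 (23.4%) and within 10 kb in 44 (23.9%). On the other autosomes these were 44.8%, 21.5% and 33.7% of 3118 borders. The median shift was 11.6 kb outward (interquartile range -7.47 to 147 kb) on chromosome 13 and 5.65 kb (-6.06 to 78.1 kb) elsewhere. Of the LmnA RNAi LADs, 21 of 96 (21.9%) spanned 2 or more LmnC RNAi LADs, against 17.6% elsewhere. LADs of the LmnC RNAi map stayed mostly inside: 96.3% of their length was shared with the LmnA RNAi list, which in turn shared 76.7% of its own. Elsewhere these shares were both higher, at 97.6% and 84.8%.

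LADs on chromosome 13 had somewhat lower median lengths and were more closely spaced than on the other autosomes. Their median length was 488 kb in LmnA RNAi cells, 405 kb in LmnC RNAi cells and 452 kb in LmnB1 RNAi cells, against 516, 449.8 and 499 kb on the other autosomes. There were 8.31, 8.40 and 8.48 LADs per 10 Mb in that order, against 7.01, 7.09 and 6.84 elsewhere. The longest measured 3.48, 3.33 and 3.24 Mb, against 12.98, 7.72 and 10.4 Mb as the longest over all 18 other autosomes. The longest of the LmnA RNAi map ran from 81844213 to 85321769 and met 3 LADs of the LmnC RNAi map and 2 of the LmnB1 RNAi map. Its log2 ratio was 2.43 ± 0.06, 1.73 ± 0.06 and 1.84 ± 0.05 in the order LmnA, LmnC and LmnB1 RNAi. The next of this map, from 9199406 to 12456876 (3.26 Mb), met 3 LmnC RNAi LADs, and 85.5% of it was in them.

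The longest stretch in LADs of every map was 3.22 Mb, from 85704479 to 88921939, and was 1 whole LAD of the LmnA RNAi map. It had 2.30 ± 0.07 in LmnA RNAi cells, 1.90 ± 0.06 in LmnC RNAi cells and 2.35 ± 0.06 in LmnB1 RNAi cells. The longest LADs of the LmnC RNAi map (85603098 to 88930143) and of the LmnB1 RNAi map (85683576 to 88921939) lay over it, and the next longest of both began at 78353052 and ended at 80999203 and 80999172. The third longest were from 9777611 to 12313579 (2.54 Mb, 2.80 ± 0.07, 2.02 ± 0.06 and 1.96 ± 0.06) in LmnC RNAi cells and from 6657343 to 9086644 (2.43 Mb, 2.42 ± 0.07, 1.80 ± 0.06 and 1.82 ± 0.07) in LmnB1 RNAi cells, in the order LmnA, LmnC and LmnB1 RNAi. The longest LADs of chromosome 13 thus lay largely over each other in the 3 lists. The longest stretch in no LAD ran from 43239246 to 45101783 (1863 kb), with -1.33 ± 0.07, -2.71 ± 0.08 and -1.72 ± 0.07.

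Over the 1163 bins, the signal in LmnA RNAi cells had a median of 0.85 (interquartile range -0.70 to 2.30), that in LmnC RNAi cells -0.54 (-2.10 to 1.54) and that in LmnB1 RNAi cells 0.12 (-1.30 to 1.71). The medians of the other autosomes were 1.24, 0.10 and 0.55, so chromosome 13 lay lower in each map. Bins above 0 made up 63.7% in LmnA RNAi cells, 43.7% in LmnC RNAi cells and 52.7% in LmnB1 RNAi cells. Without single-library fragments the medians were 0.12, -0.36 and -0.10. Bin signals of the LmnA and LmnC RNAi maps correlated with r = 0.949 over the 1163 bins, which share libraries and neighbours and are not replicates.

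The LmnA RNAi signal was above the LmnC RNAi signal by more than 0.5 in 948 of 1163 bins (81.5%), where 76.2% of all bins of the genome were, and below it by more than 0.5 in 6 (0.516%), where 0.813% were. The median difference was 1.09 (interquartile range 0.64 to 1.55), against 0.95 over all bins. Chromosome 13 had the highest median among the 19 autosomes, the next being 1.07 on chromosome 3. With the median bin of each map set to 0, 245 bins (21.1%) were higher by more than 0.5, where 16.4% of all bins were, and 295 (25.4%) lower, where 32.1% were. The median then was -0.06 on chromosome 13 and -0.20 over the genome, so the sign turned. Without single-library fragments, 338 bins (29.1%) were higher, where 21.7% of all were, and 0 were lower, where 0.0743% were, and the median was 0.36, against 0.27 over all bins.

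The bin farthest apart ran from 90500001 to 90600000, with 1.77 ± 0.35 in LmnA RNAi cells and -2.06 ± 0.42 in LmnC RNAi cells (0.25 and -0.63 without single-library fragments). The next were from 26000001 to 26100000 (0.77 ± 0.35 and -3.04 ± 0.43), inside the longest stretch above, and from 17000001 to 17100000 (0.87 ± 0.35 and -2.77 ± 0.36). The largest deficits in LmnA RNAi cells were small as deposited: -3.69 ± 0.31 against -2.80 ± 0.29 in LmnC RNAi cells from 75900001 to 76000000, 1.60 ± 0.35 against 2.40 ± 0.31 from 88000001 to 88100000, and 0.74 ± 0.23 against 1.41 ± 0.23 from 13400001 to 13500000. These deposited deficits are about 2 SDs of fragment sampling of a difference, and extremes of many bins are picked for their size. The offset between the maps is part of them. After centring, the LmnA minus LmnC RNAi differences ran from -2.04 to 2.69.

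Runs of 5 or more neighbouring bins that differed by more than 0.5 after centring showed where the shape of the profiles, apart from their offset, parted. Numbers of runs are given for chromosome 13 alone, here and for the other pairs. Without a count on the other chromosomes they do not show a trait of this one. There were 4 such runs with LmnA RNAi above LmnC RNAi. The longest had 16 bins, from 89700001 to 91300000, where the log2 ratio was 0.90 ± 0.08 in LmnA RNAi cells, -1.36 ± 0.08 in LmnC RNAi cells and -0.09 ± 0.08 in LmnB1 RNAi cells. LADs held 86.7%, 43.1% and 55.4% of this run. It lies past the longest domain in LADs of every map, which ends at 88921939. The next were from 9200001 to 9800000 (1.20 ± 0.12 against -1.28 ± 0.12) and from 5100001 to 5600000 (-0.56 ± 0.14 against -2.83 ± 0.17).

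In 9 runs the LmnA RNAi signal was below the LmnC RNAi signal after centring. The longest had 18 bins, from 86500001 to 88300000, inside the longest domain of every map, where the deposited values were near equal at 2.49 ± 0.09 in LmnA RNAi cells and 2.44 ± 0.09 in LmnC RNAi cells. The next were from 65700001 to 66500000 (2.17 ± 0.11 and 1.83 ± 0.11) and from 82500001 to 83200000 (2.37 ± 0.14 and 1.99 ± 0.13). All 3 lie wholly in LADs of every map.

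The LmnA RNAi and LmnB1 RNAi maps differ in target and fusion. The LmnA RNAi list held 55 stretches of 100 kb or more that the LmnB1 RNAi list lacked (15.6 Mb, or 13.5 Mb per 100 Mb, against 8.75 on the other autosomes). Of these, 19 were whole LADs, 25 edges and 11 bridges. The 3 longest lay at places named above: a bridge from 25647018 to 26536134 (889 kb, 0.39 ± 0.10 in LmnA RNAi cells against -0.61 ± 0.10 in LmnB1 RNAi cells), and the whole LADs beginning at 16952137 and 31914386. The next in length, from 92041565 to 92791351 (749.8 kb), is mostly an assembly gap with 12.5% cover, in LADs of the LmnA and LmnC RNAi maps and not of the LmnB1 RNAi map, and says little about contact. The whole LAD beginning at 47679072 followed. This comparison has the LmnA RNAi map in common with the one above.

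The LmnB1 RNAi list held 8 stretches (1.47 Mb) that the LmnA RNAi list lacked. They came to 1.27 Mb per 100 Mb, against 0.621 on the other autosomes. The longest, from 110840173 to 111163491 (323 kb), had -0.22 ± 0.17 in LmnA RNAi cells and 0.27 ± 0.15 in LmnB1 RNAi cells. The next, from 67659113 to 67911311 (252 kb), had 0.59 ± 0.21 and 0.49 ± 0.19, and the one from 96572263 to 96806412 (234 kb) had 0.37 ± 0.16 and -0.02 ± 0.17. The others among the 5 longest were from 101257994 to 101418364 (160.4 kb, 0.07 ± 0.23 and 0.74 ± 0.22) and from 81119594 to 81261683 (142 kb, 0.70 ± 0.24 and 1.32 ± 0.23). Each of these 5 was also in LADs of the LmnC RNAi map over at least 81.9% of its length.

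By bins, the LmnA RNAi signal was above the LmnB1 RNAi signal by more than 0.5 in 648 (55.7%), where 48.8% of all bins were, and below it in 49 (4.21%), where 8.47% were. The median difference was 0.59, the second highest of 19 autosomes behind 0.60 on chromosome 12. After centring, 173 bins (14.9%) were higher, where 14.4% of all were, and 290 (24.9%) lower, where 32.9% were. Without single-library fragments the shares were 16.9%, where 16.2% of all were, and 0.946%, where 2.45% were. The widest bins in favour of LmnA RNAi were from 74300001 to 74400000 (2.596 ± 0.36 against 0.10 ± 0.28), from 9400001 to 9500000 (1.32 ± 0.31 against -1.14 ± 0.27) and from 9300001 to 9400000 (0.79 ± 0.21 against -1.56 ± 0.27). The widest in favour of LmnB1 RNAi were from 80600001 to 80700000 (-0.01 ± 0.28 in LmnA RNAi cells against 1.49 ± 0.34), from 64400001 to 64500000 (-2.83 ± 0.32 against -1.37 ± 0.28) and from 23700001 to 23800000 (-2.23 ± 0.35 against -0.95 ± 0.30).

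After centring, 2 runs of 5 or more bins had LmnA RNAi above LmnB1 RNAi, both at places where it was also above LmnC RNAi: from 9200001 to 9800000 (1.20 ± 0.12 against -0.75 ± 0.11 in LmnB1 RNAi cells) and from 90400001 to 91000000 (0.86 ± 0.14 against -0.50 ± 0.13). In 10 runs it was below. The longest of these, with 9 bins from 118600001 to 119500000, had 2.16 ± 0.11 in LmnA RNAi cells and 2.47 ± 0.10 in LmnB1 RNAi cells. The next were from 86900001 to 87700000 (2.45 ± 0.13 and 2.62 ± 0.13) and from 80800001 to 81400000 (0.95 ± 0.13 and 1.16 ± 0.12).

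On chromosome 13 the LAD lists of the LmnC and LmnB1 RNAi maps overlapped more than those of the other pairs. The deposited signals were still offset, with a median bin difference of -0.57 for LmnC minus LmnB1 RNAi beside 0.59 for LmnA minus LmnB1 RNAi. After centring these medians were -0.0867 and -0.0776. Bin signals correlated with r = 0.964 for LmnC and LmnB1 RNAi, 0.949 for LmnA and LmnC RNAi and 0.945 for LmnA and LmnB1 RNAi. The LmnC and LmnB1 RNAi lists had 59.5 Mb in common, or 92.8% of LmnC RNAi LADs and 91.6% of LmnB1 RNAi LADs, against 92.8% and 92.7% on the other autosomes. The LmnC RNAi list held 14 stretches that the LmnB1 RNAi list lacked (3.02 Mb, or 2.61 Mb per 100 Mb, against 3.08 on the other autosomes). The longest of these was the same assembly gap from 92041565. With full cover, the longest was a whole LAD from 56243739 to 56649183 (405 kb), with -0.80 ± 0.14 in LmnC RNAi cells and -0.36 ± 0.13 in LmnB1 RNAi cells. An edge from 4663093 to 4911559 (248 kb) had -0.85 ± 0.22 and -0.34 ± 0.22, so both had the lower deposited signal in the map that lists them. The next were from 42457914 to 42635936 (178 kb, -0.05 ± 0.21 and -0.07 ± 0.20) and from 69797070 to 69972180 (175 kb, 0.50 ± 0.20 and 0.44 ± 0.22), where the deposited values did not differ beyond these errors. Of the 13 stretches that hold fragments, the LmnC RNAi value was the higher in 4 as deposited. It was the higher in 10 after centring and in 2 without single-library fragments.

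In the reverse direction 18 stretches were found (3.58 Mb, or 3.10 Mb per 100 Mb, against 2.99 on the other autosomes). In 17 of the 18 at least 50% of the length was in LADs in LmnA RNAi cells too, against 238 of 293 elsewhere. The longest, from 102539376 to 103334961 (796 kb), had -1.47 ± 0.12 in LmnC RNAi cells and 0.14 ± 0.10 in LmnB1 RNAi cells. It is the domain described above that was missing in LmnC RNAi cells alone. Edges followed, from 37077340 to 37375158 (298 kb, -0.90 ± 0.17 and 0.12 ± 0.14), from 8814070 to 9086644 (273 kb, -0.79 ± 0.20 and -0.43 ± 0.17), from 71781714 to 72044428 (263 kb, -0.92 ± 0.18 and -0.11 ± 0.19) and from 31642599 to 31847455 (205 kb, -0.98 ± 0.22 and 0.23 ± 0.23). Borders were also more often shared than in the other pairs: of 176 LmnB1 RNAi borders, 75 (42.6%) had a LmnC RNAi border within 10 kb, and the rest lay outward in 51 and inward in 50. On the other autosomes 40.5% were within 10 kb.

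By bins, the LmnC RNAi signal was above the LmnB1 RNAi signal by more than 0.5 in 52 (4.47%), where 4.74% of all bins were, and below it in 644 (55.4%), where 51.3% were. After centring, 209 (17.97%) were higher, where 19.9% of all were, and 299 (25.7%) lower, where 24.6% were. Without single-library fragments, 0.688% were higher, where 0.625% of all were, and 10.7% lower, where 9.97% were. The median difference was -0.57 as deposited and -0.22 without single-library fragments, the second of these the lowest among 19 autosomes, where the next was -0.21 on chromosome 15. The bins with the largest deficit in LmnC RNAi cells were from 26000001 to 26100000 (-3.04 ± 0.43 against -0.39 ± 0.35), from 110300001 to 110400000 (-2.58 ± 0.36 against -0.27 ± 0.32) and from 90500001 to 90600000 (-2.06 ± 0.42 against 0.20 ± 0.31). Those with the largest excess were from 12600001 to 12700000 (1.80 ± 0.30 against 0.50 ± 0.28), from 66300001 to 66400000 (2.67 ± 0.35 against 1.54 ± 0.28) and from 60900001 to 61000000 (1.65 ± 0.29 against 0.52 ± 0.34).

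The centred profiles of this pair parted in 6 runs with LmnC RNAi above, the longest from 11500001 to 12300000 (2.26 ± 0.11 against 1.77 ± 0.11), from 57500001 to 58200000 (1.67 ± 0.11 against 1.28 ± 0.10) and from 61900001 to 62600000 (2.23 ± 0.11 against 1.97 ± 0.12). In 7 runs LmnC RNAi was below. The longest of these, from 89800001 to 90800000 (-1.56 ± 0.10 against -0.17 ± 0.10), lay inside the 16-bin run of the LmnA and LmnC RNAi maps. The others were from 119000001 to 119700000 (0.64 ± 0.12 against 2.20 ± 0.12) and from 27300001 to 27900000 (-0.67 ± 0.13 against 0.59 ± 0.13), and the last was wholly in LADs of every map.

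Counted over the 3 lists together, 49.7% of chromosome 13 was in LADs of every map and 28.8% in none, against means of 53.3% (SD 4.37) and 31.4% (SD 4.87) over the other autosomes. LADs of the LmnA RNAi map alone held 12.1% (14.0 Mb), against a mean of 6.82% (SD 1.24) and a highest value of 8.68% on chromosome 3. Sequence in LADs of all but the LmnB1 RNAi map (2.64%) and of all but the LmnC RNAi map (3.94%) was within the range of the other autosomes. Sequence that both other lists hold and the LmnA RNAi list lacks was small at 1.44% (1.66 Mb), yet above the highest of the others (1.01% on chromosome 17). LADs of the LmnC RNAi map alone held 0.586% and those of the LmnB1 RNAi map alone 0.737%. Chromosome 13 was thus at the top of the autosomes for sequence that the LmnA RNAi list alone holds and for sequence that it alone lacks.

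The sequence that the LmnA RNAi list alone holds had mean log2 ratios of 0.26 in LmnA RNAi cells, -1.62 in LmnC RNAi cells and -0.87 in LmnB1 RNAi cells, near those of the same class on the other autosomes (0.31, -1.57 and -0.88). Sequence in LADs of every map had 2.23, 1.40 and 1.68, and sequence in none -1.77, -3.04 and -2.11. GATC sites, which the choice of chromosome did not use, were at the average: 251 fragments per 100 kb against 251.1 (SD 3.62) on the other autosomes. Within the chromosome there were 241 fragments per 100 kb in what the LmnA RNAi list alone holds, 261 in LADs of every map and 239 in none, so sequence that the LmnA RNAi list alone holds had about the fragment density of sequence outside LADs. On the other autosomes these were 243, 259 and 241.

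The LmnB1 RNAi signal, which does not enter the LmnA minus LmnC RNAi difference, was used to sort the bins. Its map was among those whose LAD shares chose this chromosome. Its bins correlated with those of the LmnA RNAi map (r = 0.945) and the LmnC RNAi map (r = 0.964). The sorting is thus a description and no separate evidence. Bins of the 19 autosomes were divided into 5 bands of equal number by this signal. Chromosome 13 had 26.0% of its bins in the second band (-1.79 to -0.27) and 22.9% in the third (-0.27 to 1.19), against 19.7% and 19.9% of the bins of the other autosomes. It had 16.9% in the highest band, against 20.2%. Intermediate signal was thus more common on this chromosome and strong signal less so.

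In the second band LADs held 48.9% of the chromosome in LmnA RNAi cells and 14.5% in LmnC RNAi cells, a difference of 34.3 points, against 25.2 points (41.05% and 15.8%) on the other autosomes. In the third band the difference was 18.9 points, against 15.3 elsewhere. In bands 1, 4 and 5 it was 3.16, 1.38 and 0.421 points. LAD shares were near 0% or 100% in those bands in both maps, which leaves little room for a difference in share. The median difference of the deposited signals there was 1.30, 0.78 and 0.56, against 1.42 in the second band and 1.22 in the third. These values include the offset between the maps, whose genome medians were 1.30 in LmnA RNAi cells and 0.15 in LmnC RNAi cells. Centred differences were not computed by band, so these values do not show in which bands the profiles parted beyond the offset. Had each band differed as on the other autosomes, the bins of chromosome 13 would have given 10.8 points, where 14.1 were found. When bins were instead sorted by the number of fragments they hold, the same sum gave 8.87 points. The difference was 20.6 points in the band with the fewest fragments (58 to 227 per bin) and 9.41 points in that with the most, against 11.6 and 5.29 on the other autosomes, and it was wider on chromosome 13 than on the others in each of the 5 bands. Chromosome 13 was chosen for its wide difference in LAD share, so an excess over the other autosomes follows from the choice. Its cause was not tested.

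**Figure D5:**
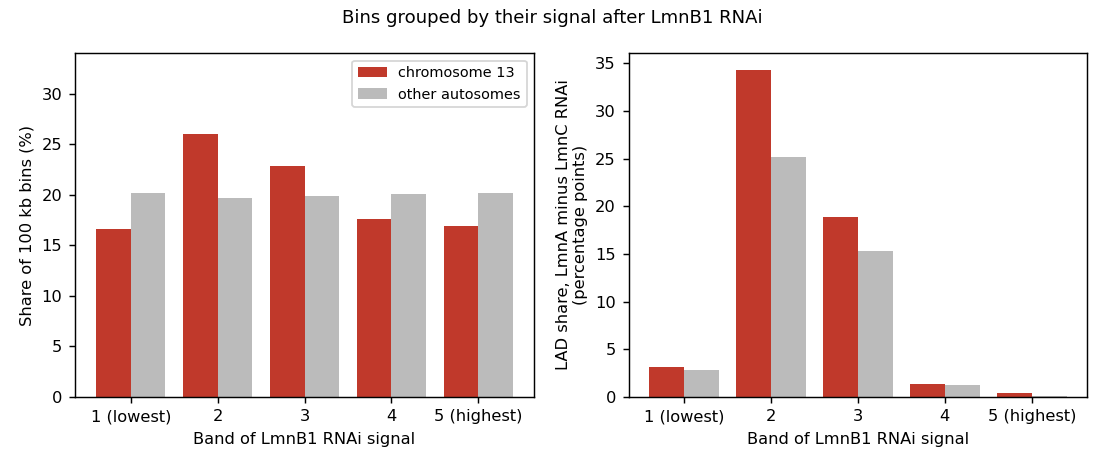
Bars give the share of 100 kb bins (left, percent) and the LmnA minus LmnC RNAi difference in LAD share (right, percentage points) in 5 bands of LmnB1 RNAi signal, for chromosome 13 (red) and the other autosomes (grey). Chromosome 13 exceeds the other autosomes in the second band on both measures, with 26.0% against 19.7% of bins and 34.3 against 25.2 points.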

How the data were processed

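DamID libraries were sequenced by the submitters from MEFs, 1 fusion and 1 Dam-only library for each of 3 maps. Reads were aligned with Bowtie to mm9, per the submitters' processing notes. How reads were filtered, ratios formed and LADs called is not given in the sources used here. Judged from the values, the authors' data are log2 ratios, 1 per GATC fragment, and their steps show 1e-05 added to both read numbers. Fragments with 0 reads in 1 library then lie more than 12 away from a constant of the map and are called single-library fragments. The deposited LAD lists were used as given.

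From these, length-weighted means in 100 kb bins (at least 50% cover, a fragment counted in the bin of its middle), overlaps and borders were computed with numpy 2.4.6 and pandas 2.3.3 after a check on simulated data. A bin was called at a difference above 0.5, a LAD counterpart needed 1 bp of overlap, a stretch was kept from 100 kb, and a gap was 10 kb or more without a fragment. Assembly gaps of this kind numbered 6 (0.909 Mb). Named regions were the longest or most different by rank in each class. The chromosome, lists and measures were chosen with earlier results of these data known. Alternatives were centring, single-library fragments, bin width, cover, stretch length, LAD length, overlap and gaps.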

Additional observations from a re-analysis of the deposited data

How the results depend on the processing

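Of 60 alternative values, 31 kept their direction and stayed near the reported value (within 1.5 times for counts and shares of bins, within 10% otherwise), 27 moved and 2 turned sign. LAD share differences with the LmnA RNAi map and all Jaccard indices stayed near their values. Setting the median bin of each map to 0 turned the median bin difference to -0.0581 for LmnA minus LmnC RNAi and -0.0776 for LmnA minus LmnB1 RNAi, and made it -0.0867 for LmnC minus LmnB1 RNAi. It gave 21.1% higher and 25.4% lower bins for the first pair, 14.9% and 24.9% for the next, and 17.97% and 25.7% for the last. Leaving out single-library fragments gave medians of 0.36, 0.21 and -0.22 in that order, with 29.1% and 0%, 16.9% and 0.946%, and 0.688% and 10.7% of bins higher and lower. Bins of 200 kb gave 0% lower for LmnA minus LmnC RNAi, 2.23% lower for LmnA minus LmnB1 RNAi and 2.06% higher for LmnC minus LmnB1 RNAi. Stretches of at least 200 kb numbered 31 (LmnA over LmnC RNAi), 3 (LmnC over LmnA), 29 (LmnA over LmnB1), 3 (LmnB1 over LmnA), 3 (LmnC over LmnB1) and 5 (LmnB1 over LmnC). The LmnC minus LmnB1 RNAi share difference was -0.70 points of all bp, gaps included, and -1.18 points with LADs of at least 200 kb. The longest gap (655 kb) lay in LADs of the LmnC RNAi map and almost wholly outside those of the LmnB1 RNAi map. Counting gaps thus adds its length to the LmnC RNAi LADs. Beyond this and the shorter list under a longer minimum, the cause of these moves was not tested. No paired analysis was possible because each map has 1 library of each kind. Depth limits single bins to the sampling SDs given, and single-library fragments rest on 1 read at the median.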
